A study of Bos taurus with 6 samples.

Results

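NAMPT, 5 of the NAD-dependent deacylases of the sirtuin family and 4 other enzymes that make, convert or consume NAD form a set of 10 genes, whose transcripts were measured in bovine cumulus cells. Cumulus cells are the somatic cells that enclose the oocyte. The set holds NAMPT, NMNAT1, NADK, NNT, SIRT1, SIRT2, SIRT3, SIRT5, SIRT6 and PARP1. It was taken from the platform annotation by gene symbol, which gave 22 of the 43794 probes on the array and all 10 genes among 15229 symbols. The genes were chosen by theme, but with their FID over control ratios on these arrays already known, and those ratios are the values that entered the choice. They are therefore given as a description, and a call for one of them states only its place in the fit over all probes.

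NAD carries electrons between metabolic enzymes and is also cut up as a substrate. Most mammalian cells rebuild it from nicotinamide: NAMPT makes nicotinamide mononucleotide, the rate-limiting step, and NMNAT1 joins this to ATP in the nucleus. NADK phosphorylates NAD to NADP, and NNT uses the proton gradient of the mitochondrial inner membrane to reduce NADP with NADH. Sirtuins and PARP1 split NAD and release nicotinamide, which NAMPT can use again. In the follicle, cumulus cells metabolise glucose and pass pyruvate and other metabolites to the oocyte, reactions in which NAD takes part.

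The treated cells came from cumulus-oocyte complexes matured in vitro with FID, a mixture of 100 µM forskolin, which activates adenylyl cyclase, 500 µM IBMX and 50 µM dipyridamole, both inhibitors of phosphodiesterases. The control cells came from complexes matured without the mixture. Both came from ovaries of Holstein cows obtained at slaughter, and the oocyte was present during culture, per the labels' protocols. The 3 compounds were given only together, the number of animals behind a replicate is not given in the labels, and NAD and cyclic AMP were not measured. The control labels carry 6 h while the protocol gives 22 to 24 h of culture for both, so a difference in time between the conditions cannot be told apart from the mixture. FID and control RNA of 3 biological replicates, numbered 1, 2 and 4, were hybridised together on 2 two-colour arrays each, with the dyes exchanged, 6 arrays in all. These are bulk samples, in which fewer cells of a type and less RNA per cell cannot be told apart.

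Of the 22 probes, 21 exceeded background on 4 or more arrays in one of the conditions and were tested, so that all 10 genes had a tested probe. Background was set from the 153 negative control spots of the array, at their 95th percentile in each channel. On 15 probes both conditions exceeded it on all 6 arrays, and 0 of the 22 were saturated or marked as faulty on any array. Over all probes, with the dye Cy5, 51.2% to 63.2% exceeded background in FID, against 58.5% to 71.3% in control. With the dye Cy3 it was 80.0% to 84.3% in FID, against 75.1% to 86.7% in control. A gene stands by its brightest tested probe, as log2 of FID over control with its standard error (SE, n = 3 replicates) from limma. Intensities are in scanner units after background correction, which adds 50, and loess. They were not normalized between arrays, so a range over arrays also holds differences between arrays, and only the log2 ratio is read within an array.

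Of the 10 genes, 3 passed limma's test at an adjusted p of 0.05, with p-values adjusted by Benjamini-Hochberg across the 32124 tested probes. NAMPT and SIRT1 were higher in FID, and PARP1 was lower. The smallest adjusted p over all tested probes was 0.0476, so every call in this fit lay close to the threshold. With any 1 of the 3 replicates left out, 0 of the 10 genes and 0 of all probes passed. Over all 12363 tested genes, 2.36% passed, 1.07% higher and 1.29% lower in FID. Since the genes were picked with these ratios known, nothing is read from that comparison. The median log2 ratio was -0.08 over the 10 genes and 0.01 over all tested genes. FID and control intensities did not overlap over the 6 arrays for 4 genes, NAMPT, SIRT1, PARP1 and NNT, while 15.6% of all tested genes had no overlap. The same 4 genes had one sign on 6 of 6 arrays, as did 27.9% of all tested genes. Counted by probe, 12.4% of all tested probes had no overlap and 22.7% had one sign throughout.

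NAMPT, on its single probe EMBV3_29270, had intensities of 2348 to 5002 in FID, with a median of 2624, against 489 to 1183 in control, with a median of 981. Every FID value exceeded every control value. The log2 ratios in replicates 1, 2 and 4 were 2.23, 1.40 and 2.05. Replicate 2 gave the smallest ratio on both of its arrays, 1.25 with FID in Cy5 and 1.56 with FID in Cy3. The mean was 1.90 ± 0.20, or 3.72-fold, with an adjusted p of 0.0492 in limma, close to the threshold like every call. The adjusted p was 0.0509 with median centring in place of loess, 0.0526 with no filter on dim probes and 0.0527 with scale normalization between arrays. It was 0.0557 with the authors' deposited ratios, 0.0622 with marked spots kept in the background fit and 0.0678 without background correction. NAMPT passed under 6 of the 15 alternatives, while its ratio stayed between 1.64 and 2.14 under all of them.

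NMNAT1, which completes the salvage route in the nucleus, did not pass. Its brightest probe, EMBV3_33854, had 482 to 1661 in FID, with a median of 1077, against 892 to 1029 in control, with a median of 956. The control values lay close together and the FID values on both sides of them. By replicate the log2 ratios were 0.34, -0.88 and 0.54, with a mean of -0.00 ± 0.33, so the replicates went in opposite directions by more than the mean. The second probe, EMBV3_36688, had -0.59 ± 0.20 and was lower in FID on 5 of 6 arrays. The last, EMBV3_03973, exceeded background on 1 array in FID and 3 in control and was not tested.

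**Figure D1:**
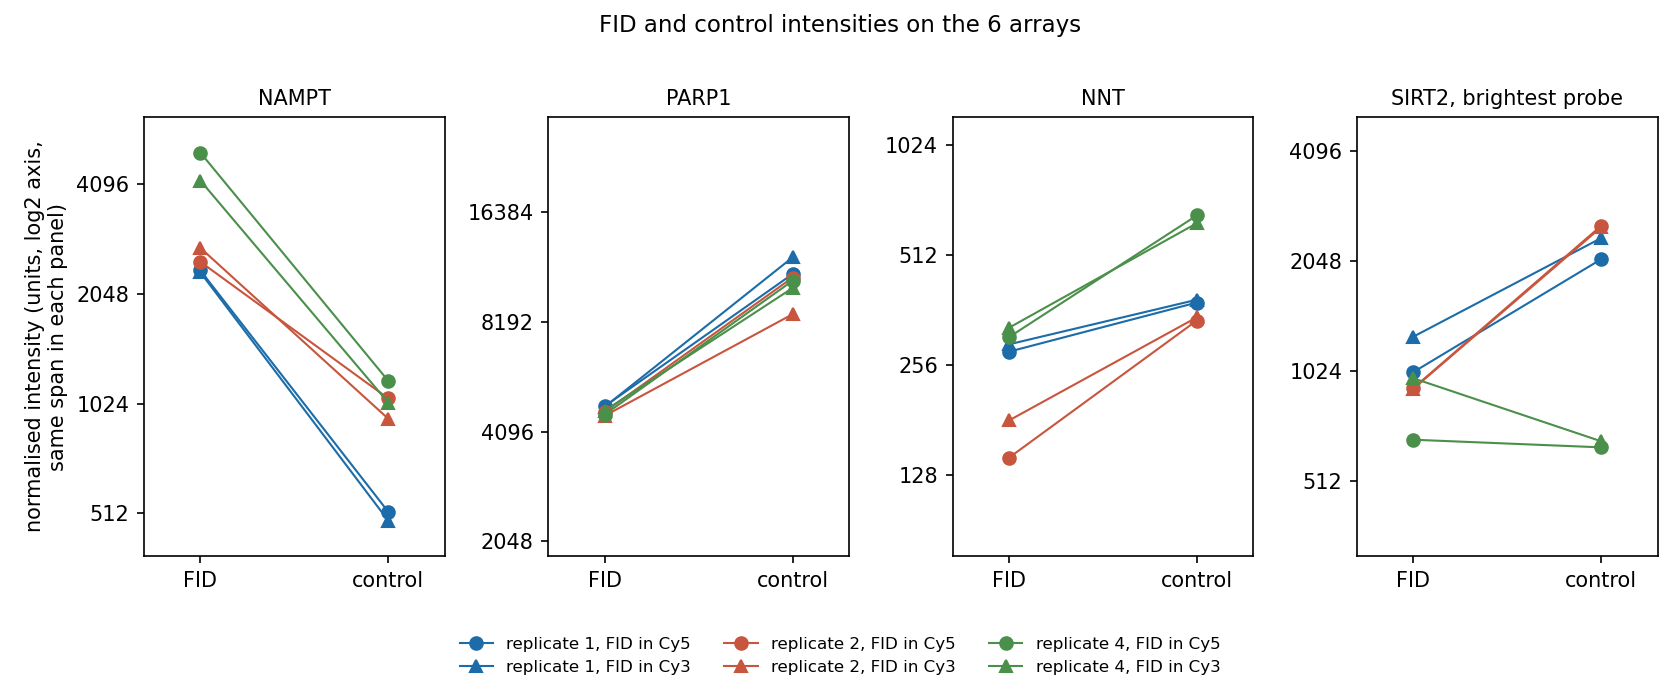
Normalised intensity (log2 axis, the same span in each panel) in FID and control for NAMPT, PARP1, NNT and the brightest SIRT2 probe, with a line joining the conditions on each of the 6 arrays, colours for replicates and symbols for the dye of FID. All 6 lines run down to control for NAMPT and up for PARP1 and NNT, while for SIRT2 the lines of replicate 4 run against the others.

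The enzymes that convert NAD further were not called. NADK had 165 to 207 units in FID on EMBV3_35986, with a median of 182, against 138 to 208 in control, with a median of 181. These ranges overlap almost fully, and the log2 ratio was 0.10 ± 0.14. The other probe of NADK had -0.04 ± 0.16. NNT, on its single probe EMBV3_10797, had 142 to 323 units in FID, with a median of 285, against 339 to 658 in control, with a median of 383.

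NNT was thus lower in FID on each of the 6 arrays, with log2 ratios of -0.43, -1.10 and -1.03 in replicates 1, 2 and 4. The mean was -0.85 ± 0.17, which did not pass (adjusted p = 0.0939 in limma). A second limma fit took the 6 arrays separately, with replicates as random blocks and a term for the dye, and is called the block fit. In it NNT passed, with an adjusted p of 0.00997. There 5 of the 10 genes passed, against 20.8% of all tested genes. It counts both arrays of a replicate towards its degrees of freedom, so it adds no biological replicate.

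SIRT1, a nuclear deacetylase of histones and transcription factors, was the only called member with more than 1 probe. It had 3 tested probes, which disagreed about the call. The brightest, EMBV3_25799, had 1455 to 2002 units in FID, with a median of 1628, against 538 to 846 in control, with a median of 722. The conditions did not overlap, and the log2 ratios were 1.17, 1.41 and 1.10 in replicates 1, 2 and 4. The mean was 1.23 ± 0.11, or 2.34-fold (adjusted p = 0.0476 in limma). With median centring it was 0.99 (adjusted p = 0.0504), and the adjusted p was 0.0507 with the authors' deposited ratios, 0.0560 with marked spots kept and 0.0618 without background correction.

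EMBV3_29025 had 265 to 753 units in FID, with a median of 427, against 302 to 721 in control, with a median of 402. Its log2 ratios were 0.51, -0.09 and -0.22 in replicates 1, 2 and 4, with a mean of 0.07 ± 0.18. EMBV3_12468, above background on 4 arrays in each condition, had 84.3 to 249 units in FID, with a median of 142, against 90.4 to 220 in control, with a median of 126. Its log2 ratios were 0.05, -0.32 and 0.67, with a mean of 0.13 ± 0.22. On both of these probes the conditions overlap and the replicates differ in sign.

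EMBV3_25799 exceeded EMBV3_29025 in log2 ratio by 0.659, 1.503 and 1.322 in replicates 1, 2 and 4, and on 6 of 6 arrays. It exceeded EMBV3_12468 by 1.12, 1.73 and 0.43, and on 5 of 6 arrays. With the mean of its 3 probes in place of the brightest, SIRT1 had 0.48 and did not pass (adjusted p = 0.0948 in limma). The transcript regions that the 3 probes match are not given in the sources used here. Such a split was common on this array: of 99 called genes with more than 1 tested probe, 84 were called on a single probe, and 24 had at least 1 probe of opposite sign.

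**Figure D2:**
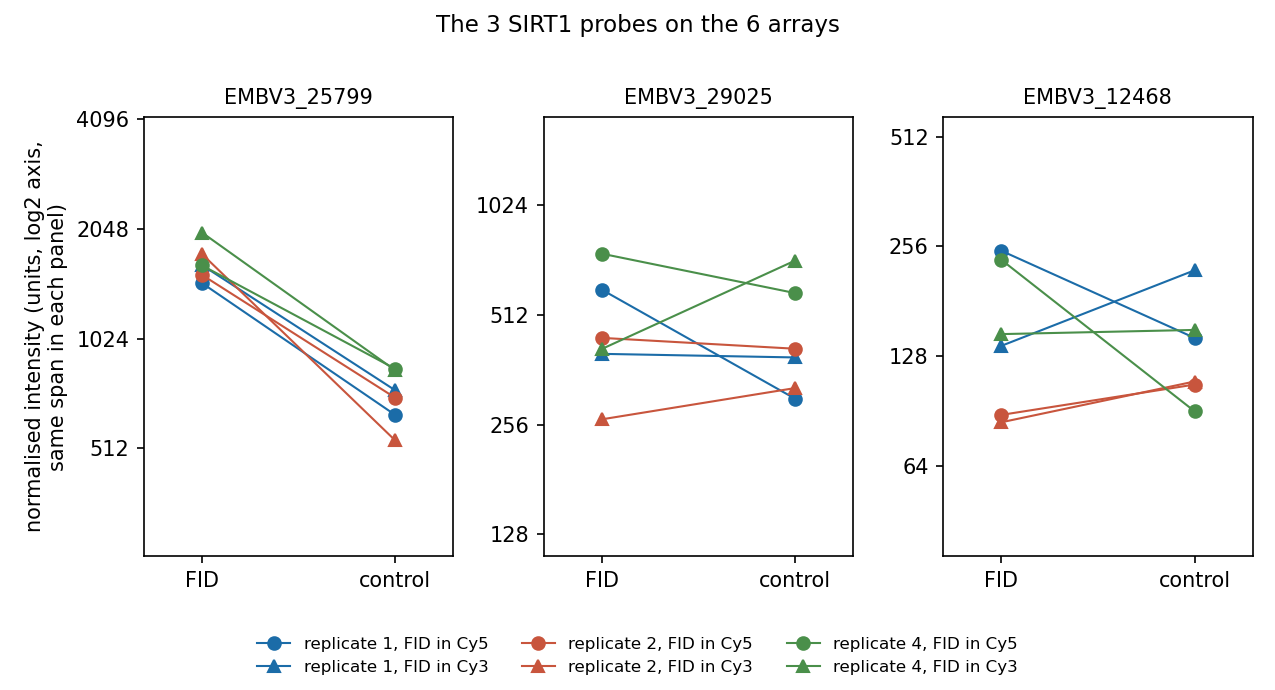
Normalised intensity (log2 axis, the same span in each panel) in FID and control for the 3 SIRT1 probes, with a line joining the conditions on each of the 6 arrays, colours for replicates and symbols for the dye of FID. On EMBV3_25799 all 6 lines run down to control, while on EMBV3_29025 circles and triangles of the same colour take different slopes. On EMBV3_12468 they do so in replicates 1 and 4, while the lines of replicate 2 have similar slopes.

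The dye went with the ratios of the other SIRT1 probes. The dye effect, Cy5 over Cy3, is the part of a ratio that changes sign when the dyes are exchanged, and the mean over both orientations cancels it. On EMBV3_29025 the log2 ratio averaged 0.48 with FID in Cy5 and -0.35 with FID in Cy3, a dye effect of 0.42 ± 0.08 (adjusted p = 0.00308 in limma, n = 3 replicates). On EMBV3_12468 these were 0.63 and -0.37, a dye effect of 0.50 ± 0.11 (adjusted p = 0.00584). On EMBV3_25799 they were 1.09 and 1.37, and the dye effect of -0.14 ± 0.08 did not pass (adjusted p = 0.197).

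SIRT6, another nuclear sirtuin, did not pass on any of its 3 tested probes. The brightest, EMBV3_06369, had 192 to 602 units in FID, with a median of 294, against 230 to 477 in control, with a median of 386. Its log2 ratios were -0.62, 0.54 and -0.37 in replicates 1, 2 and 4, so that replicate 2 stood apart in sign on both of its arrays. The mean was -0.15 ± 0.27. The other probes had 0.20 ± 0.12 and -0.07 ± 0.09.

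SIRT2 is mainly cytosolic and deacetylates tubulin among other proteins. Its brightest probe, EMBV3_42743, had 663 to 1270 units in FID, with a median of 947, against 631 to 2559 in control, with a median of 2220. The log2 ratios were -0.96, -1.48 and 0.32 in replicates 1, 2 and 4. Replicate 4 stood apart in sign, with 0.07 and 0.57 on its arrays, while the other arrays lay between -1.48 and -0.90. The mean was -0.71 ± 0.39 and did not pass. The dimmer probe EMBV3_32371 had 0.05 ± 0.14.

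The mitochondrial sirtuins did not pass either. SIRT3, the main mitochondrial deacetylase, had 220 to 527 units in FID on EMBV3_05384, with a median of 342, against 280 to 439 in control, with a median of 301. Its log2 ratio was 0.08 ± 0.22, and its other probes had 0.03 ± 0.11 and 0.03 ± 0.10. SIRT5 removes succinyl and malonyl groups from lysines. On EMBV3_38230 it had 224 to 410 units in FID, with a median of 333, against 390 to 603 in control, with a median of 431.

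The log2 ratio of SIRT5 on that probe was -0.73, -0.45 and -0.33 in replicates 1, 2 and 4, with a mean of -0.51 ± 0.12. It was not called (adjusted p = 0.112), but passed in the block fit (adjusted p = 0.0358), which adds no biological replicate. It averaged -0.09 with FID in Cy5 and -0.93 with FID in Cy3, the lowest adjusted p for a dye effect among these probes (0.00136). The 2 other SIRT5 probes had -0.01 ± 0.09 and -0.00 ± 0.09 and did not pass in the block fit (adjusted p = 0.987 and 0.998). With the mean of its 3 probes the gene had -0.17.

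PARP1, which builds poly(ADP-ribose) at DNA breaks and is a large consumer of NAD, was lower in FID on 6 of 6 arrays, with much the same ratio in each replicate. On its single probe EMBV3_21686 it had 4524 to 4805 units in FID, with a median of 4654, against 8595 to 12309 in control, with a median of 10726. Every FID value lay below every control value. Log2 ratios were -1.28, -1.08 and -1.17 in replicates 1, 2 and 4, with a mean of -1.18 ± 0.09 (adjusted p = 0.0476 in limma). Control was 2.26-fold over FID. The ratio lay between -1.38 and -1.12 under all 15 alternatives. With all replicates kept, the adjusted p missed the threshold with the authors' deposited ratios (0.0505), with marked spots kept in the background fit (0.0560) and without background correction (0.0618).

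**Figure D3:**
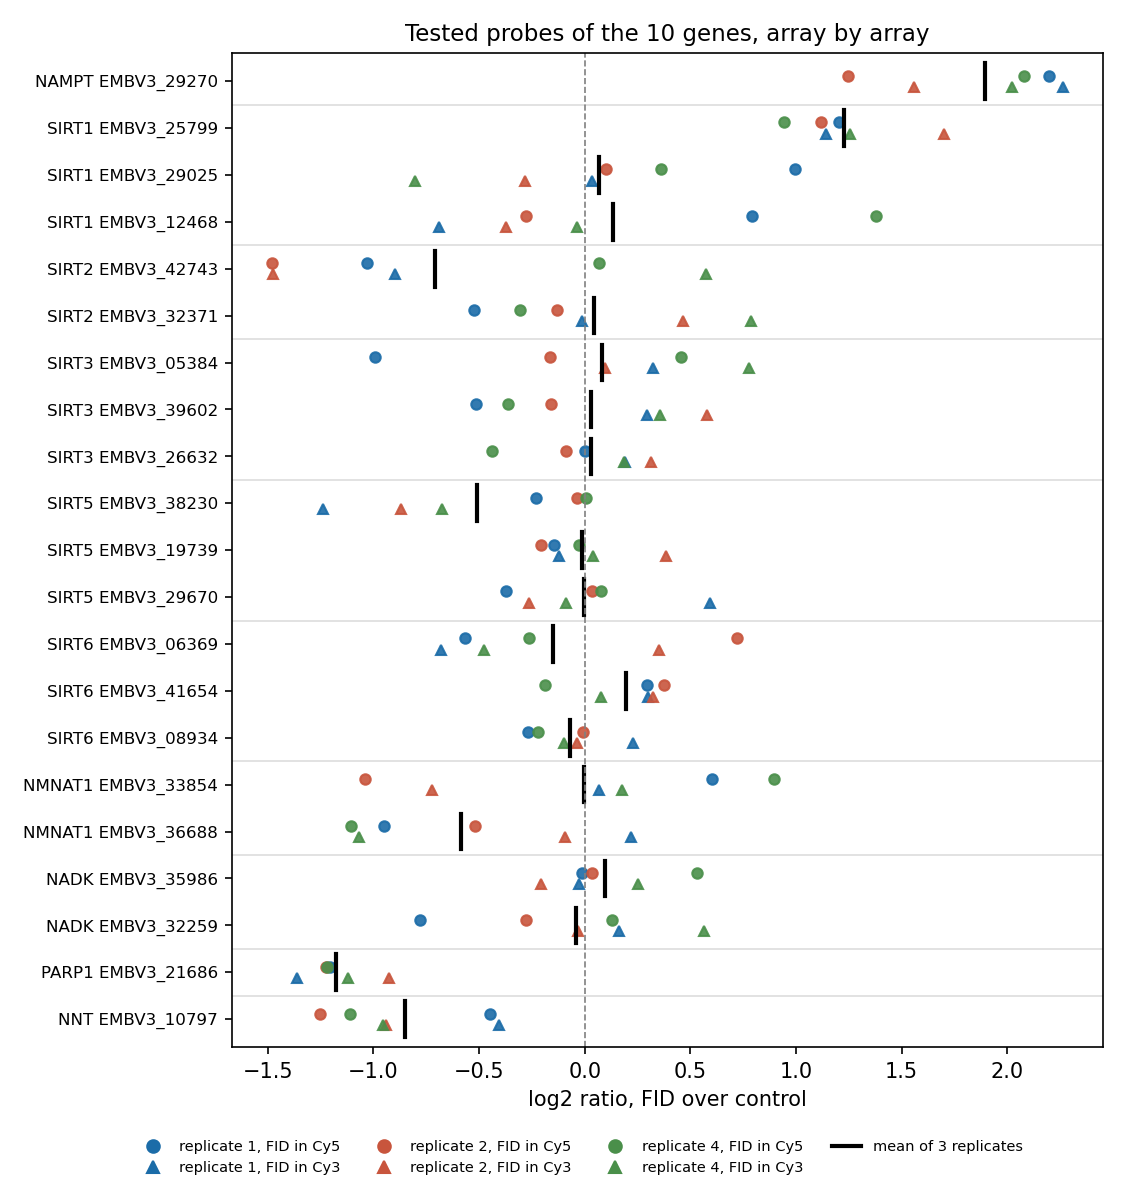
Log2 ratio of FID over control on each of the 6 arrays for the 21 tested probes of the 10 genes, with circles for FID in Cy5, triangles for FID in Cy3, colours for replicates and a bar for the mean of 3 replicates. The points of NAMPT, EMBV3_25799 of SIRT1, PARP1 and NNT lie on one side of 0, and for the SIRT3 probe EMBV3_39602 all circles lie left of 0 and all triangles right of it.

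Across the tested probes, 8 of 21 (38.1%) had a dye effect past the threshold, against 30.5% of all tested probes, so the set is near the background. On 11 of the 21 the dye effect was larger in size than the FID over control ratio. None of NAMPT, PARP1, NNT and EMBV3_25799 was among the 8. Of the 7 genes with more than 1 tested probe, 3 had probes of both signs, SIRT2, SIRT6 and NADK. In the authors' deposited log2 ratios the means were 1.87 for NAMPT, 1.19, 0.09 and 0.13 for the SIRT1 probes in the order above, -1.22 for PARP1 and -0.75 for NNT.

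The rest of the pathway was followed in lists of genes, which include the members and were chosen with earlier results of these data known. In the salvage list, 4 of 6 genes had a tested probe and 1 rose, NAMPT, with a median of 0.06 over the list, while NMNAT2 and the nicotinamide riboside kinase annotated as ITGB1BP3 had 0.07 ± 0.10 and 0.06 ± 0.09. Of the routes from tryptophan and nicotinic acid, 0 of 5 tested genes passed, with a median of 0.10. KYNU, a hydrolase of kynurenine breakdown, had -0.54 ± 0.27 but exceeded background in FID on 3 arrays only, so its ratio is not well measured. NADSYN1, which amidates the nicotinic acid dinucleotide, had 0.36 ± 0.15 and QPRT, which takes quinolinate into the route, 0.26 ± 0.14. NADK and NNT, as the list of NAD kinases and transhydrogenase, had 0 of 2 passing and a median of -0.38. NAPRT, under its older name NAPRT1, exceeded background on 3 arrays in FID and 3 in control and was not tested.

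Of all 7 sirtuins, 1 rose and 0 fell, and the median was -0.47. It was -0.17 with the mean of all probes of a gene, where 0 rose, and -0.23 on the arrays with FID in Cy5. SIRT7, a nucleolar sirtuin, had -0.55 ± 0.21 and SIRT4, a mitochondrial one, -0.47 ± 0.14, each lower in FID on 6 of 6 arrays. In the PARP family 1 of 13 tested genes fell, PARP1, and the median was -0.42, with 10 of 13 negative. In the block fit 5 fell and 0 rose, where 11.9% of all tested genes were lower and 8.84% higher. PARP9 and PARP14, named after their values were seen, are known as interferon-induced genes. PARP9 had 320 to 695 units in FID, against 2298 to 5883 in control, and a log2 ratio of -2.96 ± 0.40 (adjusted p = 0.0588, and 0.00119 in the block fit). PARP14 had 102 to 177 units in FID, where it exceeded background on 5 arrays, against 652 to 1717 in control, and -2.61 ± 0.31 (adjusted p = 0.0543, and 0.00105 in the block fit).

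Of 4 tested genes that remove ADP-ribose, 0 passed, with a median of -0.21. MACROD1, a mono-ADP-ribose hydrolase, had 0.93 ± 0.13 (adjusted p = 0.0604, and 0.00345 in the block fit). The hydrolase ADPRHL2 had -0.63 ± 0.11 and ADPRH, above background in FID on 3 arrays, -0.32 ± 0.10. Of 7 tested genes listed as NAD glycohydrolases and ecto-nucleotidases, 0 passed, with a median of -0.58. The list also holds the Nudix hydrolases NUDT5, NUDT9, NUDT12 and NUDT13, which are neither. CD38 was its only tested glycohydrolase, since BST1 and SARM1 were not tested, so the median does not describe glycohydrolases. The block fit had 2 lower, against 11.9% of all tested genes. NUDT5, an ADP-sugar pyrophosphatase, had -1.16 ± 0.25, NT5E, the ecto-5'-nucleotidase CD73, -1.001 ± 0.153 and NUDT13 -0.61 ± 0.16. CD38, the main NAD glycohydrolase, had -0.05 ± 0.13. Its ratio was positive on the 3 arrays with FID in Cy5 and negative on the 3 with FID in Cy3. Its dye effect was 0.52, and its other tested probe had a ratio of opposite sign.

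Of 6 genes of nicotinamide clearance and nucleoside breakdown, 0 passed, with a median of -0.33. Apart from AOX1 these were nucleotidases and a nucleoside phosphorylase, and NNMT, also listed, was not on the array. The block fit had 2 lower, against 11.9% of all tested genes. The nucleotidase NT5C3 had -1.43 ± 0.38, purine nucleoside phosphorylase, annotated as NP, -1.25 ± 0.25 and AOX1, an oxidase of nicotinamide products, -0.60 ± 0.27. Among 12 tested genes of NADH shuttles and NAD recycling, 1 fell, and the median was -0.15. It was SLC25A12, an aspartate-glutamate carrier of the malate-aspartate shuttle, with 440 to 898 units in FID, against 1434 to 2118 in control. Its log2 ratio was -1.47 ± 0.12 (adjusted p = 0.0476 in limma), lower in FID on 6 of 6 arrays. LDHA and LDHB, the lactate dehydrogenases, had -0.10 ± 0.10 and -0.44 ± 0.17 and did not pass, with LDHA saturated on 1 array in each condition.

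Of 10 tested genes that produce NADPH, 0 passed, with a median of -0.31. The block fit had 3 lower, against 11.9% of all tested genes. Malic enzyme ME1 had -0.85 ± 0.11 and cytosolic isocitrate dehydrogenase IDH1 -0.85 ± 0.18, with 1 array of IDH1 marked as faulty and left out. MTHFD1, a folate enzyme, had -0.70 ± 0.13. Among 13 sirtuin substrates and partners 0 passed, and the median was 0.00. HIF1A, the hypoxia factor, had -1.11 ± 0.28, with 1 array saturated in control, FOXO1 0.64 ± 0.18 and NFE2L2 -0.47 ± 0.14.

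**Figure D4:**
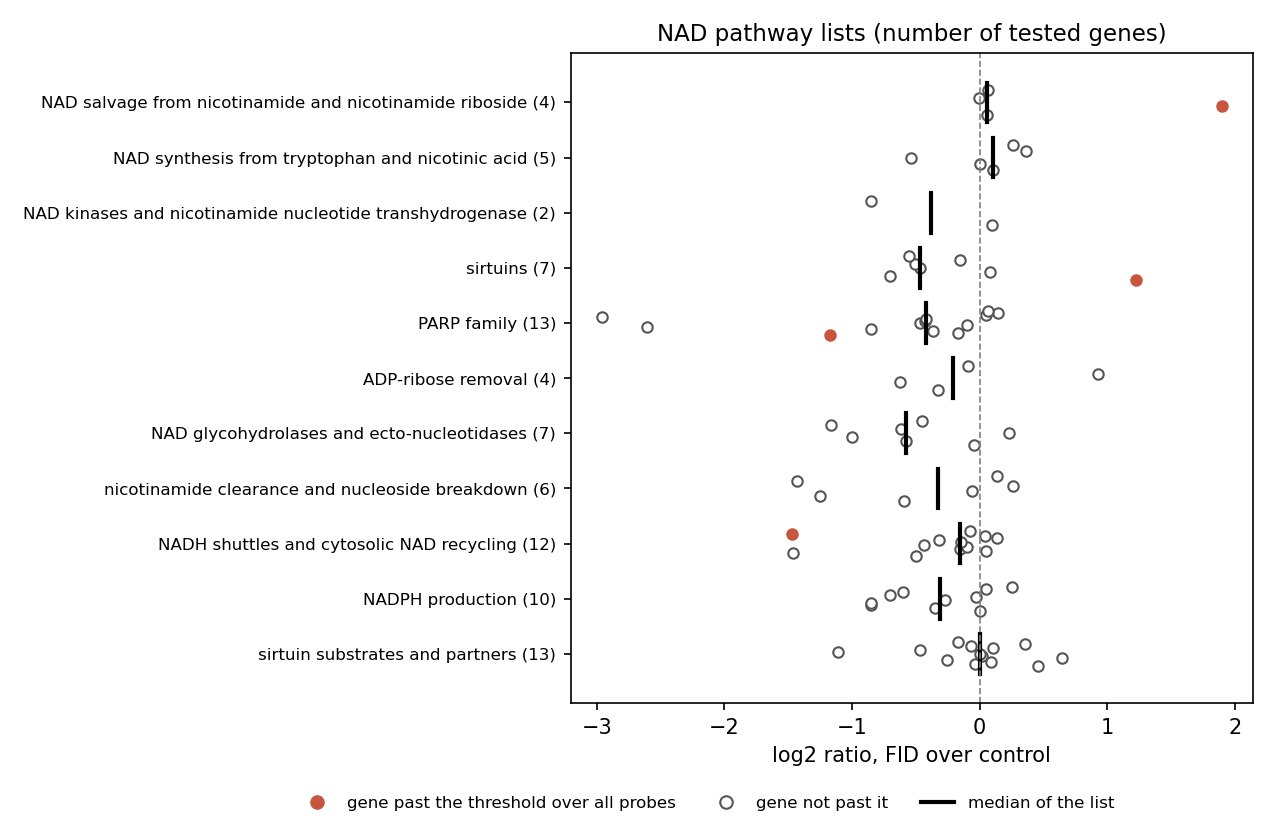
Log2 ratio of FID over control for each tested gene of the NAD pathway lists, with filled points for genes past the threshold over all probes, open points for the others and a bar for the median of the list. Filled points are NAMPT and SIRT1 on the right and PARP1 and SLC25A12 on the left.

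By Euclidean distance over the log2 ratios of the 6 arrays, the genes nearest to NAMPT were C26H10ORF6 (distance 0.35 log2 units), SPTY2D1, a histone chaperone (0.50), FAR1, a fatty acyl-CoA reductase (0.54), COQ10B, a coenzyme Q-binding protein (0.66), and GCLC, the catalytic subunit of glutamate-cysteine ligase (0.73). This is a description over 6 arrays of 3 replicates, and 19 of 12362 genes lay within 1 unit. GCLC had 1.95 ± 0.10.

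Markers of cumulus and granulosa cells were present: 16 of 18 had a tested probe, all 16 above background in both conditions on 6 arrays, with 0 passing, a median of -0.41, and FOXL2 and AMHR2 not tested. In the block fit 2 of the 16 were higher and 8 lower, against 8.84% and 11.9% of all tested genes. With no filter on dim probes the median was -0.06. The largest in size were KRT8 with -2.36 ± 0.29, KRT18 with -1.76 ± 0.39 and AMH with 1.71 ± 0.24. Of the 16, 7 had a positive ratio and 9 a negative one. Other markers changed little: FSHR had 0.19 ± 0.23, CYP19A1 0.20 ± 0.18 and INHA, saturated on 2 arrays in FID, 0.14 ± 0.08. Oocyte markers had a positive mean ratio in 14 of 14 tested genes, with 0 passing and a median of 1.18. Of the 14, 4 were above background in both conditions on 6 arrays, and DAZL and H1FOO were negative in replicates 1 and 4. In the block fit 2 of the 14 were higher, against 8.84% of all tested genes. Medians of the oocyte markers were 0.82, 2.49 and 0.11 in replicates 1, 2 and 4, and the median was 0.50 without replicate 2. They summed to 2012 to 35577 units in FID, against 1776 to 5633 in control. ZP2 of the zona pellucida had 2.29 ± 0.93, DPPA3 2.29 ± 0.54 and ZAR1 2.08 ± 0.96. NAMPT had its smallest ratio in replicate 2, where oocyte markers had their largest, and without replicate 2 it had 2.14. EMBV3_25799 of SIRT1 had its largest ratio there and 1.14 without that replicate. On their brightest probes, SIRT2 and NMNAT1 had their lowest ratios in replicate 2, -1.48 and -0.88, and SIRT6 its highest, 0.54. SIRT3 and SIRT5 lay between their other replicates there.

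Markers of stroma, theca and endothelium summed to 9429 to 15896 units in FID, against 23450 to 31306 in control. A large part of these sums was ACTA2, with 5925 to 11805 units in FID, against 13074 to 23375 in control. ACTA2 had a log2 ratio of -1.06 ± 0.30 and did not pass, and 4 of the 10 tested genes had a positive ratio. The median was -0.25, and 2 of 10 tested genes fell, PDGFRA with a log2 ratio of -2.09 ± 0.14 and LUM with -1.49 ± 0.14. In the block fit 4 of the 10 were lower, against 11.9% of all tested genes. The median was not stable: it was -0.40, -0.28 and 0.05 in replicates 1, 2 and 4, 0.06 without replicate 1, and -1.28 among probes above background throughout. Of 15 blood and immune markers on the array 8 were tested and 0 passed, with a median of 0.28. The 8 summed to 2278 to 5298 units in FID, against 1790 to 3299 in control. The block fit had 2 higher, HBA and LYZ, against 8.84% of all tested genes. CD68 had 1.15 ± 0.57 and HBA 0.94 ± 0.29. LYZ exceeded background on 4 arrays in FID and 0 in control, so it was tested through FID alone and its ratio is not well measured. TYROBP, ITGAM and ITGB2 were above background on 0 arrays. The part of these cell markers in the ratios of the 10 genes was not tested.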

How the data were processed

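Bovine cumulus cells were profiled on 6 two-colour arrays. The authors deposited raw spot and local background intensity per channel (532 nm for Cy3, 635 nm for Cy5), per the file headers, and a table of log2 ratios with no statement of their normalization in the headers. Set beside the computed ratios the deposited log2 ratios ran as Cy5 over Cy3 (r of 0.992 to 0.997, medians of -0.0185 to -0.00285), with their centring otherwise unknown, and served as an alternative.

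Mean spot intensities and median local backgrounds were corrected with normexp (offset 50) after leaving out the 13 to 88 spots per array marked as to be ignored, then normalized by loess within arrays, in limma 3.58.1 under R 4.3.3. Control spots had weight 0. The sign was turned on the 3 arrays with FID in Cy3, the arrays of a replicate were averaged, and 3 ratios per probe were tested against 0 with lmFit and eBayes, which was also tested on simulated data. The number of replicates limits the precision. Same-numbered arrays deviated together (correlations of 0.703 to 0.850 over 31915 probes), as dye swaps of one replicate.

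Probes were named through the platform annotation (21790 with 1 symbol, 22004 with none). All 10 symbols are current RefSeq symbols. Named were all members with their probes, every list gene that passed or else the 3 largest in size, and the 5 genes nearest to NAMPT. SIRT4, SIRT7, NMNAT2, ITGB1BP3, CD38, NUDT9, NUDT12, LDHA, LDHB, PARP9, PARP14, FSHR, CYP19A1, INHA, GOT1 and GOT2 were named in addition. The members and lists were chosen with earlier results of these data known. No slide or scan batch is in the file headers. Probe sequences and coordinates are not used here.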

Additional observations from a re-analysis of the deposited data

Results flagged for a closer look

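For 8 probes of the set the FID over control ratio differed between the 3 arrays with FID in Cy5 and the 3 with FID in Cy3, by limma's test of the dye effect over all probes, which 30.5% of all tested probes passed. The SIRT3 probe EMBV3_39602 had a difference of -0.75 on the log2 scale, FID in Cy5 minus FID in Cy3, with all arrays of the first kind below 0 and all of the second above it (adjusted p = 0.00209). The difference was 0.84 for SIRT1 on EMBV3_29025 and 1.00 on EMBV3_12468. It was -0.73 for SIRT2 on EMBV3_32371, -0.63 for SIRT3 on EMBV3_05384 and 0.84 for SIRT5 on EMBV3_38230. NMNAT1 on EMBV3_36688 had -0.54, and NADK on EMBV3_32259 had -0.54. Adjusted p over the 8 lay between 0.00136 and 0.0460.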

How the results depend on the processing

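NAMPT, SIRT1, SIRT2, SIRT5, PARP1 and NNT kept the sign of their ratio under all 15 alternatives, while SIRT3, SIRT6, NMNAT1 and NADK, which were not called, changed sign under some. Over all probes 557 passed, 248 higher and 309 lower in FID. Median centring gave 234 higher and 529 lower, and 1 of the 10 genes, PARP1. In limma, 0 probes and 0 of the 10 genes passed without background correction (7101 probes at an unadjusted p under 0.05), with marked spots kept in the background fit (7025) and with the deposited ratios (7428). Without replicates 1, 2 and 4 in turn 0 to 0 probes and 0 to 0 of the genes passed, with 4863 to 6576 probes at an unadjusted p under 0.05. These counts rest on fewer samples. Offset 16 gave 1033 probes and probes above background throughout 979. Arrays with FID in Cy5 alone gave 1612 and those with FID in Cy3 alone 2268. The replicate block with a dye term gave 5177 probes and 5 of the genes, adding SIRT5 and NNT. The 8 member probes with a dye effect became 2 with marked spots kept, 5 among probes above background throughout, 5 in the block fit, and 5 to 9 when a replicate was left out. Medians of the pathway lists also moved. Median centring gave -0.31 for the shuttles. No filter on dim probes gave -0.31 for the list of glycohydrolases and ecto-nucleotidases and 0.12 for blood markers. Probes above background throughout gave -0.60 for NADPH production and 0.61 for blood markers. The tryptophan and nicotinic acid routes had 0.03 with FID in Cy5 and -0.10 with FID in Cy3, the PARP family -0.27 with FID in Cy5, and the salvage list 0.23 without replicate 2. The cause was not tested. Slide as a block was not run, since no slide is given. Dim probes are limited by signal over background.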

Other observations

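GOT2, the mitochondrial aspartate aminotransferase that works with SLC25A12 in the malate-aspartate shuttle, was singled out after its values were seen, as was GOT1. It had 321 to 755 units in FID, against 932 to 1494 in control, and log2 ratios of -0.70, -2.07 and -1.62 in replicates 1, 2 and 4. The mean was -1.47 ± 0.30, lower in FID on 6 of 6 arrays, and did not pass limma's test (adjusted p = 0.0952). GOT2 passed in the block fit (adjusted p = 0.00713), which adds no biological replicate and where 11.9% of all tested genes were lower. GOT1, its cytosolic partner, had -0.50 ± 0.08 (adjusted p = 0.0734).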
